A study of Mus musculus with 4 samples.

Results

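The mouse major histocompatibility complex (MHC), called H2, was described here as the CTCF regions on chromosome 17 with a centre between 34000000 and 36500000 (build mm9). CTCF was measured by chromatin immunoprecipitation and sequencing in WEHI-231, a B cell lymphoma line from a (BALB/c x NZB)F1 mouse. Of the 4 libraries, 2 were made from control cells. The other 2 came from cells in which TFII-I, the transcription factor that the gene Gtf2i encodes, is stably knocked down. The series title concerns the part of TFII-I in bringing CTCF to promoters. The labels do not say whether the knockdown cells are 1 clone or whether the replicates were separate cultures, so the p-values measure only the spread between these libraries, which may be technical. RNA was not measured in these libraries, and the degree of knockdown was not analysed here. Peaks of any list that shared 1 bp or more were joined, and 113 of the 29116 joined regions lay in the locus. Members were thus chosen by position and not by any measured value. The limits of the locus were, however, set with earlier results of these data known. At the edges, the first region inside began at 34002205 and the last outside before it ended at 33964406, while the last inside ended at 36494976 and the next began at 36555221.

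The MHC holds the genes that present antigen to T cells. Class I genes such as H2-K1 and H2-D1 encode the heavy chains that carry peptides made inside the cell. The class II genes H2-Ab1, H2-Aa and H2-Eb1 encode the beta and alpha chains that B cells use to present engulfed antigen, and the class III stretch between the class II genes and H2-D holds complement and cytokine genes, among them Tnf, which encodes tumour necrosis factor. CTCF, a DNA-binding protein with zinc fingers, sits at insulators and at the anchors of chromatin loops, and in human B cells CTCF sites between the class II genes are known to take part in their expression. In the RefSeq gene table for the later build GRCm38, used here for the order of genes only, H2-K1 is followed by H2-Ab1, H2-Aa, H2-Eb1, Tnf and H2-D1, with 83 named protein-coding genes from H2-K1 to H2-D1, both included. No mm9 annotation was used, so regions are given by position, and the locus was divided at approximate limits into an H2-K part (34000000 to 34200000), a class II part (to 34500000), a class III part (to 35400000) and an H2-D, Q and T part (to 36500000). H2-D1 lies near the limit of the last pair of parts, so the regions around 35400000 may fall on either side of it. BALB/c and NZB mice carry the d haplotype of the MHC and the reference genome the b haplotype; how well reads from the one map to the other was not analysed here.

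CTCF regions lay close together over the whole MHC. The locus held 45.2 regions per Mb, against 11.8 per Mb on the rest of chromosome 17, 16.0 per Mb in the 1 Mb before it and 20.0 per Mb in the 1 Mb after it. Among 978 autosomal windows of 2.5 Mb the median was 23 regions, the highest was 114, and the locus with its 113 had the second highest number. With the windows shifted by 1.25 Mb, 1 of 969 other windows again held more, at 143 regions. The gap between neighbouring regions had a median of 13719 bp in the locus and 28772 bp over all regions. Gaps under 2 kb made up 9 of 112 in the locus (8.04%) and 6.78% of all gaps, so close pairs took a similar share of the gaps. These are shares of gaps and not numbers per Mb.

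Counting regions with any call, density was similar in the 4 parts, at 50 regions per Mb in the H2-K part (10 regions), 50 in the class II part (15), 44.4 in the class III part (40) and 43.6 in the H2-D, Q and T part (48). Regions called in both controls differed more, at 45, 50, 33.3 and 37.3 per Mb in the same order. None of the 25 stretches of 100 kb was empty. The fullest, from 35300000 to 35400000 at the end of the class III part, held 11 regions. The next, from 34300000 to 34400000 in the class II part, held 8. The emptiest held 1 region each, from 34800000 to 34900000 in the class III part and from 36200000 to 36300000 in the H2-D, Q and T part, and in both the region was found in both controls and in no knockdown library. The widest gap ran 96955 bp, from 34577299 to 34674255 in the class III part. The closest pair stood 37 bp apart, also in the class III part: a region from 35225024 to 35225722 called in all 4 libraries and a weak one from 35225760 to 35226194, called in control replicate 2 alone with a score of 56.9.

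**Figure D1:**
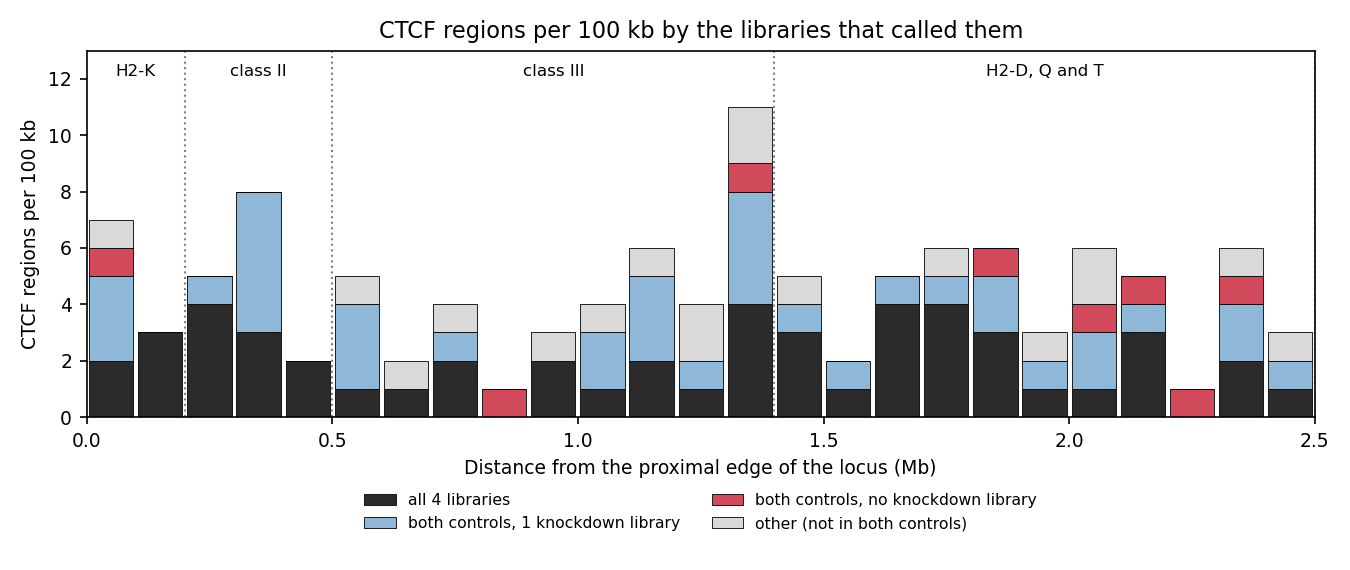
CTCF regions per 100 kb (y axis) against the distance from the proximal edge of the MHC locus in Mb (x axis), stacked by the libraries with a call; dotted lines divide the 4 parts. The highest bar, with 11 regions, closes the class III part, and the class II part has no region that both knockdown libraries lacked.

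In peak numbers, the locus moved with the lists as a whole. Control replicates 1 and 2 had 101 and 105 peaks in it, and knockdown replicates 1 and 2 had 87 and 64. Both knockdown libraries were below both controls, with means of 75.5 ± 16.3 (SD, n = 2) and 103 ± 2.83 (SD, n = 2). That is 73.3% as many peaks after knockdown, and over the complete lists the figure was 71.1%. The two-sided exact permutation p for this difference of -27.5 peaks was 0.33, the smallest that 2 libraries against 2 allow, so no test over libraries here could pass 0.05. With each list limited to its 15309 strongest peaks, the means were 70 and 75.5, a difference of -5.5 peaks (two-sided exact permutation p = 0.667). As a share of its own list, the locus took 0.413% and 0.440% of the control peaks and 0.456% and 0.418% of the knockdown peaks (two-sided exact permutation p = 0.667). These shares overlapped between the groups. Tag counts and depth are not in the lists, so fewer peaks in a library and fewer reads behind it cannot be told apart.

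The median peak of the MHC scored above the median of its list in all 4 libraries, though not in each part. The score is the authors' own value per peak, read as 10 times the negative log10 of a p because its lowest value is 50. It grows with depth, so scores of different libraries are not on a common scale and are given per library. A score cutoff of 100, used further below, sets 1 value on all lists in spite of this. The median score in the locus was 136 in control replicate 1 and 114 in control replicate 2, where the complete lists had medians of 111 and 107. In knockdown replicates 1 and 2 it was 94.1 and 89.5, where the complete lists had 85.5 and 79.1. Set on a scale where 100 is the highest score of a list, the median peak of the locus stood at percentile 64.5 and 54.2 in the controls, and after knockdown 59.2 and 62.4, so the groups overlapped. Regions of the class III part stood lower, at median percentiles of 56.6 and 48.5 in the controls, and after knockdown 47.1 and 56.7. Regions in the locus had a median width of 624 bp, against 572 bp over all regions, and 6 of 113 (5.31%) were over 1 kb, against 1.09% of all regions.

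**Figure D2:**
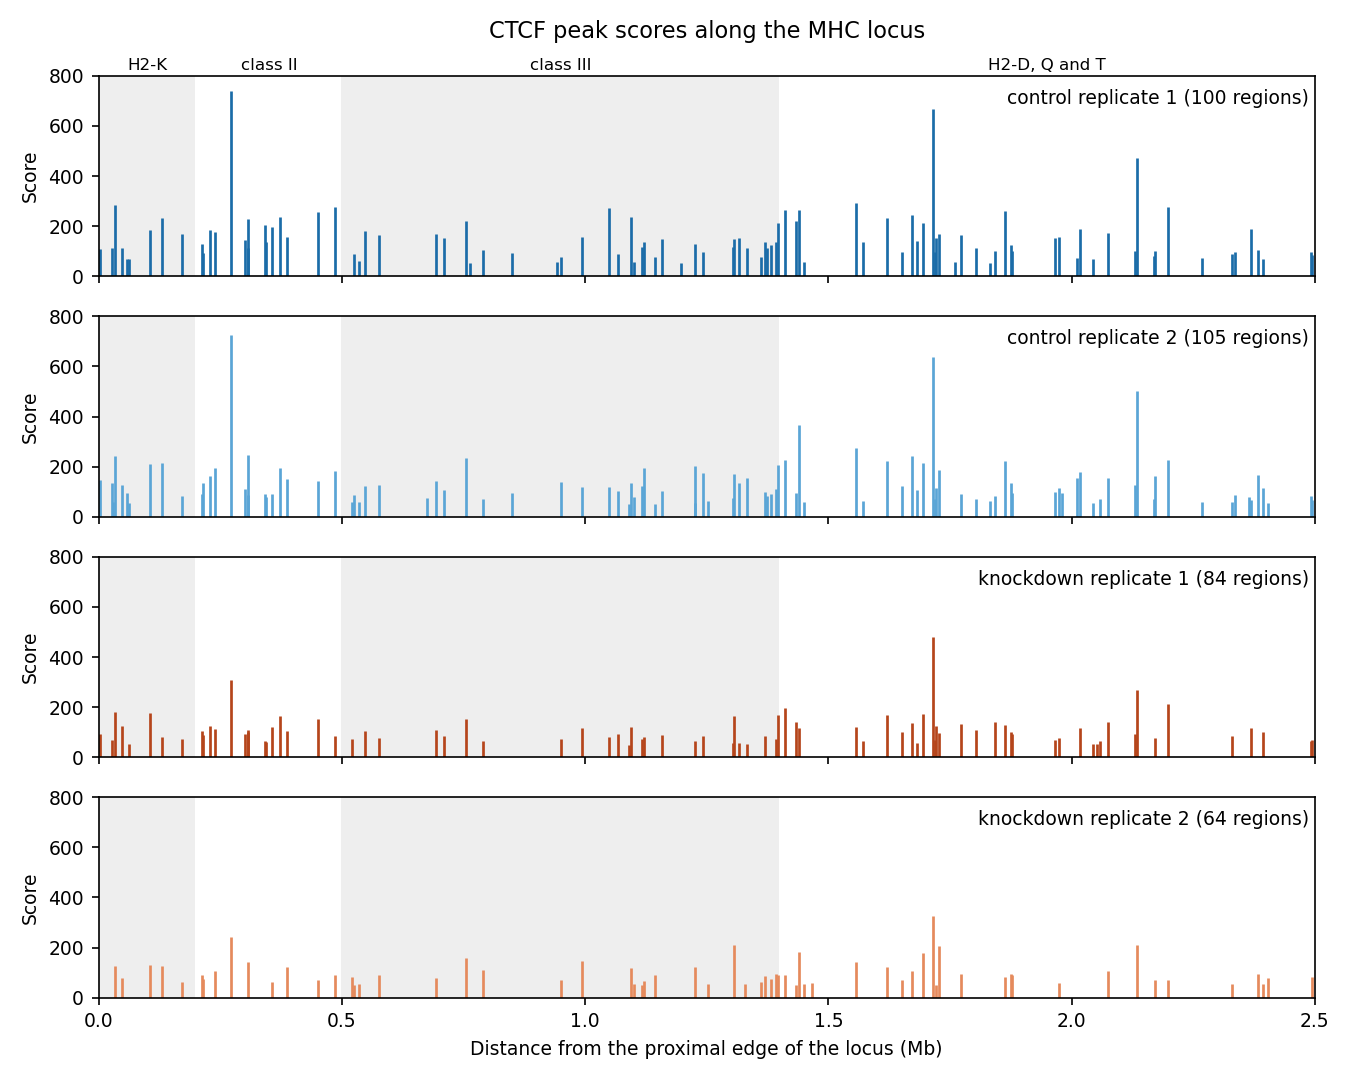
Score of each CTCF region (y axis, the authors' value; scores of different libraries are not on a common scale) against the distance from the proximal edge of the locus in Mb (x axis), 1 panel per library, with grey and white bands for the 4 parts. The 3 tallest lines, in the class II part and in the H2-D, Q and T part, are the same in the 4 libraries.

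The H2-K part held 10 regions, 5 of them called in all 4 libraries. The strongest, from 34033825 to 34034623, scored 286 in control replicate 1 and 241 in control replicate 2. It scored 179 in knockdown replicate 1 and 128 in knockdown replicate 2. The next by mean rank, from 34105445 to 34106511, scored 187 and 210.1 in control replicates 1 and 2, with knockdown scores of 178 and 132. Ranked among the regions called in all 4 libraries, with 100 as the highest, the first stood at 93.7 and 89.9 in the controls, and after knockdown at 92.3 and 83.6, so the groups overlapped. The second stood at 71.7 and 83.3 in the controls, and higher after knockdown at 92.0 and 84.9. Of the 9 regions found in both controls, 8 were called in knockdown replicate 1 and 5 in replicate 2, where 77.6% and 64.1% were called over all such regions. The region that both lacked, from 34057537 to 34058231, was a weak control peak with scores of 68.4 and 96.4.

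All 15 regions of the class II part had a call in control replicates 1 and 2 and knockdown replicate 1. Knockdown replicate 2 called 9 of them. Which of the 15 lie near H2-Ab1, H2-Aa and H2-Eb1 was not determined. None of the 15 was absent from both knockdown libraries (exact 95% Clopper-Pearson interval for the share 0 to 21.8%, counting error only), and none was called in knockdown libraries alone. That interval treats neighbouring regions as independent, so it cannot decide whether the share differs from the background. Over all regions called in both controls 14.8% were absent from both. At the shares of regions of the same control strength 0.836 of the 15 would be, so this count is near the background. Knockdown replicate 1 thus called 15 of 15, where it called 77.6% over all such regions, and knockdown replicate 2 called 60.0%, where it called 64.1%. Their control peaks were high in their lists, with median percentiles of 84.3 and 70.9 in control replicates 1 and 2. The region from 34272090 to 34272631 was the highest of the whole locus in both controls, with scores of 739.9 and 725 at places 53 and 37 of their lists. In knockdown replicates 1 and 2 it scored 309 and 242, at places 182 and 184. It thus stayed among the top peaks in all 4 libraries but stood lower in both knockdown lists, although those lists are shorter. The second class II region, from 34307588 to 34308267, scored 228 and 246 in control replicates 1 and 2, with knockdown scores of 109.9 and 143.

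The 6 class II regions that knockdown replicate 2 lacked include some of high score. Within the stretch from 34300000 to 34400000, both controls and knockdown replicate 1 called 8 regions, of which 3 also had a call in knockdown replicate 2. The strongest of the missing ones, singled out after its values were seen, runs from 34371778 to 34372504. Its score was 238 and 197 in the control lists and 166 in knockdown replicate 1, and the nearest peak of knockdown replicate 2 was 14248 bp away. It belongs to the strongest of 10 equal groups of control regions, in which knockdown replicate 2 lacked 4.86% of the 2078 regions and knockdown replicate 1 lacked 0.962%. Of the 18 MHC regions in that group, it was the one not called in all 4 libraries. The next missing class II region by control rank, likewise picked after its values were seen, runs from 34227730 to 34228286 and scored 186 and 162 in control replicates 1 and 2, with a score of 126 in knockdown replicate 1. Because knockdown replicate 1 called every class II region, these absences rest on 1 library.

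The class III part, in which Tnf lies, had the lowest share of regions called in every library, at 14 of 40 (35.0%), near the 35.9% on the rest of chromosome 17 and below the 40.3% over all regions. Its peaks were also the weakest of the locus by median score in control replicate 2, at 105, and in both knockdown libraries, at 82.7 and 84.4. The region with the highest mean rank over the 4 lists, from 34755737 to 34756472, scored 220.1 and 235 in control replicates 1 and 2, with knockdown scores of 154 and 158. Another, from 35305629 to 35306293, had a high place in the knockdown lists. It scored 149 and 171 in the controls, and after knockdown 165 and 209. It was placed 7199th and 4290th in the control lists and 1318th and 322nd in the shorter knockdown lists. Of the 30 class III regions found in both controls, knockdown replicate 1 lacked 7 (23.3%), close to the 22.4% it lacked over all regions. Regions found in both controls and in knockdown replicate 2 but not 1 numbered 5 of 30 here (16.7%) and 7 of 95 in the whole locus (7.37%, against 7.63% over all such regions).

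The H2-D, Q and T part is named after H2-D1 and the many related class I genes of the Q and T groups. It held 48 regions, 23 of them called in all 4 libraries. The region from 35714960 to 35715787 scored 669 and 639 in control replicates 1 and 2, with knockdown scores of 482 and 325. It stood at places 74 and 66 of the control lists and at places 56 and 75 of the knockdown lists, and was the highest MHC region in both knockdown libraries. The region from 36133691 to 36134549 scored 470.3 and 503 in control replicates 1 and 2, with knockdown scores of 268 and 212, at places 225 and 156, then 272 and 303. Both are among the top peaks of each list. The Q and T genes are close copies of each other, and reads from such copies may be placed on the wrong one; this was not tested.

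**Figure D3:**
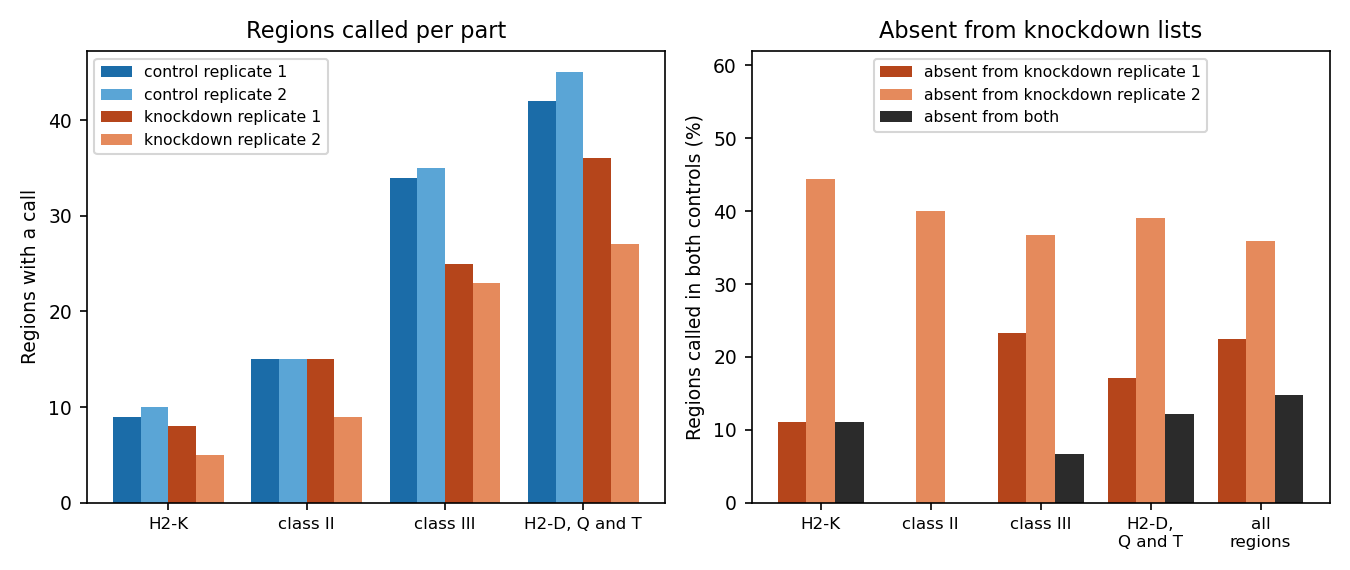
Left, number of regions with a call (y axis) in each part of the MHC locus, 1 bar per library. Right, the percent of regions called in both controls (y axis) that knockdown replicate 1, knockdown replicate 2 or both lacked, per part and over all regions; class II regions were all present in knockdown replicate 1, while 40.0% were absent from replicate 2.

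Few MHC regions that both controls shared were absent from both knockdown lists, and no test set their share against that over all regions. Of the 95 MHC regions called in both controls, 8 (8.42%, exact 95% Clopper-Pearson interval 3.71 to 15.9%, counting error only) had no call in either knockdown library. Over all 20780 such regions, those of the MHC included, the share was 14.8%. The interval treats neighbouring regions as independent, so it cannot decide whether the shares differ. At the shares seen over all regions of the same control strength, taken in 10 equal groups, 11.4 of the 95 would lack both. Knockdown replicate 1 called 80 of the 95 (84.2%) and 77.6% over all such regions, and knockdown replicate 2 called 58 (61.1%) and 64.1%. The 2 libraries thus lay on different sides of their backgrounds, and no loss or retention particular to the MHC is read from them. When peaks were joined only at a reciprocal overlap of 50%, 13 of 94 regions lacked both (13.8%), against 17.4% over all regions. Peaks of knockdown replicate 1 in the locus were narrower than those of the other libraries, with a median of 340 bp. The median was 521 and 553 bp in control replicates 1 and 2, and 489.5 bp in knockdown replicate 2. Over the complete lists knockdown replicate 1 also had the narrowest peaks, with a median of 328 bp. There the median was 483 and 507 bp in control replicates 1 and 2, and 446 bp in knockdown replicate 2. Whether this width difference makes more regions fail the overlap was not tested. Of the rest of the 95, 29 were present in knockdown replicate 1 and absent from replicate 2 (30.5%, against 21.1% over all regions), and 7 the reverse.

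The 8 regions that both knockdown libraries lacked were among the weaker control regions. They fell among the 38 MHC regions in the weaker 5 strength groups (21.1%, against 26.6% over all regions of those groups), and none fell among the 57 in the stronger 5 groups, where the share over all regions was 3.02%. By part, 1 lay in the H2-K part, 2 in class III and 5 in the H2-D, Q and T part, where the shares at the same control strength give 1.15, 3.69 and 5.75, so these counts are near the background. The first by control rank, from 36010595 to 36011275, scored 75.2 and 153 in control replicates 1 and 2, so that it too was weak in 1 control. The region from 35373240 to 35373831 scored 114 and 83.4, that from 34849939 to 34850476 scored 94.0 and 94.3, and that from 36335170 to 36335801 scored 98.6 and 86.8. Besides the one in the H2-K part described above, the remaining ones run from 36168561 to 36169118 (scores of 80.3 and 71.0), from 36268824 to 36269301 (72.7 and 58.7) and from 35832062 to 35832544 (52.3 and 64.2). None reached a score of 100 in both controls.

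The distance from these 8 regions to a called neighbour varied. The nearest knockdown peak lay between 3228 and 61283 bp away in replicate 1 and between 3234 and 61223 bp away in replicate 2. The farthest from both lists were the region from 34849939 to 34850476, with 58830 and 58746 bp to the nearest knockdown peaks, and the region from 36268824 to 36269301, with 61283 and 61223 bp. The regions from 36010595 and from 35832062 had peaks of knockdown replicate 1 at 5197 and 10228 bp, and of knockdown replicate 2 at 37132 and 30060 bp. The region from 35373240 to 35373831, in the crowded stretch at the end of the class III part, had knockdown peaks 3852 and 3810 bp away.

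In the other direction, no MHC region was called in both knockdown libraries without a call in any control. There were 52 MHC regions called in both knockdown libraries, and over all 12429 such regions the share without a control call was 1.14%, which is less than 1 of 52. Regions called in any knockdown library and no control numbered 3 of 113 (2.65%), against 5.84% of all regions. They ran from 35466610 to 35466986 and from 35328561 to 35329096, with scores of 61.0 and 53.9 in knockdown replicate 2, and from 36051988 to 36052377, with a score of 53.4 in knockdown replicate 1. All 3 were weak peaks found in 1 library each, at list percentiles of 20.6, 7.24 and 5.89 in that order.

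Called in all 4 libraries were 51 of the 113 MHC regions (45.1%), against 40.3% of all regions. By part this share was 50% for H2-K, 60.0% for class II, 35.0% for class III and 47.9% for H2-D, Q and T. To compare their order without the effect of list length, the 11741 regions called everywhere were ranked by score within each library, with 100 as the highest. The 51 MHC regions had a mean rank of 60.7 and 56.8 in control replicates 1 and 2 and of 59.9 and 57.4 in knockdown replicates 1 and 2. The knockdown mean differed from the control mean by -0.0711 points (two-sided exact permutation p = 1), less than the spread between replicates (SD of 2.72 points in the controls and 1.79 in the knockdown pair, n = 2 each). Part by part the mean difference was -3.18 points for H2-K (5 regions), -2.99 for class II (9), 2.43 for class III (14) and 0.224 for H2-D, Q and T (23), against an SD over regions of 17.7 to 20.8 points in each part.

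Single regions moved in both directions. Both knockdown ranks were below both control ranks in 10 of the 51 regions (19.6%), against 17.9% over all regions, and above them in 12 (23.5%), against 19.2%, so these counts are near the background. The largest fall was at the distal end of the class II part, from 34486169 to 34486886, with ranks of 92.9 and 73.8 in control replicates 1 and 2 and of 35.6 and 55.3 in knockdown replicates 1 and 2. Its scores were 276 and 183 in the controls, and after knockdown 85.2 and 89.9. The class III region from 35120998 to 35121729 had ranks of 43.1 and 78.3 in the controls, and after knockdown of 32.9 and 24.7. In the H2-K part, the region from 34128625 to 34129776 had ranks of 87.3 and 84.9 in the controls, and after knockdown of 29.6 and 83.8. Its fall thus came from replicate 1, and replicate 2 stood near the controls.

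The largest rise was that of the class III region from 35305629 to 35306293 given above, with ranks of 50.6 and 68.1 in the controls, and after knockdown of 89.3 and 97.3. The region from 34992569 to 34993306, also in class III, had ranks of 54.8 and 35.6 in the controls, and after knockdown of 65.7 and 90.3. The region from 35876486 to 35877165 in the H2-D, Q and T part had ranks of 20.8 and 17.7 in the controls, and after knockdown of 44.7 and 57.6. Its scores were 103 and 94.5 in the control lists, then 93.4 and 91.8 in the knockdown lists. In these 3 regions the groups did not overlap. They were picked as the extremes of 51, and no test was made of them.

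**Figure D4:**
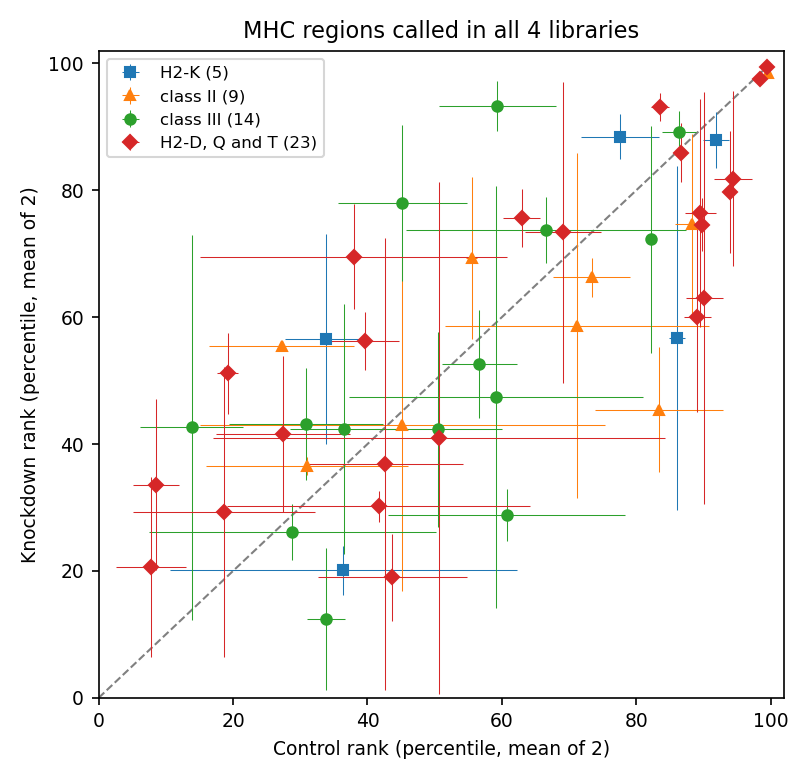
Mean knockdown rank (y axis) against mean control rank (x axis) of the 51 MHC regions called in all 4 libraries, as percentiles among the 11741 regions called everywhere; thin lines span the 2 libraries of each group and the dashed line marks equal rank. Points lie on both sides of the line, and many of the thin lines are long.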

How the data were processed

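Each library has a deposited peak list of its own, so calling was taken to be per library. BWA, HOMER and build mm9 appear in the submitters' processing notes without versions, and peak names carry the word MACS; use of an input library is not given in the sources used here. Column 6 of each list is the score deposited by the authors. Coordinates are those of the lists and were taken to start at 1.

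Peaks sharing at least 1 bp were joined, and a region took the highest score of a library's peaks in it. Percentile ranks were computed within a list, or among regions called in all 4 libraries. Control strength was the mean list percentile in both controls, cut into 10 equal groups. Library values were compared with two-sided exact permutation tests; regions were counted and not tested. Regions named in the text are, where present, up to 8 called in both controls and no knockdown library, up to 5 called in knockdown libraries alone, 2 strong regions per part, 3 rises, 3 falls, the closest pair and the widest gap; 2 class II regions absent from knockdown replicate 2 were added after their values were seen. The locus, its parts and these rules were chosen with earlier results of these data known. Alternatives were a reciprocal overlap of 50%, joining of peaks within 500 bp, lists of equal length, a stricter score, a wider locus, a summed score and leaving out each library.

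The joining code was run on simulated data: 200 of the 24467 peaks in copies of the first control list were deleted from the knockdown copies, and 200 came back as called in both controls alone. The copies were otherwise identical, so working code had to return this. The run checks the bookkeeping only, and not the joining of peaks that differ in position or width between lists. The software was python 3.11.15 with pandas 2.3.3, numpy 2.4.6 and scipy 1.17.1; matplotlib 3.10.9 drew the plots.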

Additional observations from a re-analysis of the deposited data

How the results depend on the processing

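Regions called in both controls and in no knockdown library numbered 13 of 94 with a reciprocal overlap of 50% (17.4% over all regions), 4 of 66 with lists of equal length (7.27% over all) and 18 of 52 with a score of at least 100 in all lists (39.5% over all). With that score in both controls and absence judged on the complete lists, an alternative chosen after seeing the data, they numbered 0 of 52. Leaving out 1 library, which loosens the definition, gave 12 (without control replicate 2), 13 (without control replicate 1), 15 (without knockdown replicate 2) and 37 (without knockdown replicate 1). Among these settings, the share in the locus was below that over all regions with reciprocal overlap, equal length, the score of 100 in all lists and without control replicate 1, control replicate 2 or knockdown replicate 2, and above it without knockdown replicate 1 (38.9% against 35.9%). Regions of the reverse class numbered 3 with lists of equal length (5.77%, against 7.41% over all), 1 with reciprocal overlap (2.04%, against 1.76%), and 0 to 2 without 1 library (0 to 3.13%, against 3.11 to 5.83%). Regions called in all libraries numbered 18 at the stricter score (23.1%, against 14.6% over all) and 51 to 80 without 1 library, the highest without knockdown replicate 2 (72.1%, against 56.5%).

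The difference in peak number kept its sign in the settings tried, and went from -27.5 to -5.5 with lists of equal length and from -39 to -16 without 1 library. The difference in the share of a list became -0.0359 percentage points with lists of equal length and 0.0740 at the stricter score. It lay between -0.00826 and 0.0298 without 1 library, against 0.0107 as reported. The rank difference became 1.55 points with reciprocal overlap and lay between -2.21 and 2.27 without 1 library; the cause was not tested. With the replicate block, which takes differences within replicate numbers, the peak difference was -27.5 (-14 and -41), with an exact sign-flip p of 0.5, the smallest for 2 pairs; the numbers are not known to pair the libraries. Depth is unknown, so an absent call near the lowest score cannot be told from a peak just under it.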
